A study of Homo sapiens with 8 samples.

Results

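The genes described here encode the nuclear subunits of respiratory complexes I, III and IV. They were taken from the gene table by their symbols, as NDUFA, NDUFB, NDUFC, NDUFS and NDUFV genes with a number and NDUFAB1 for complex I, 8 UQCR genes for complex III, and COX4 to COX8 genes with a letter A, B or C for complex IV. The rule found 60 of the 23459 genes in the table, of which 38 belong to complex I, 8 to complex III and 14 to complex IV. COX4I1, COX4I2, COX7A2L, CYC1 and NDUFA4L2 fall outside it by the form of their symbols. NDUFA4 is counted with complex I by its name, although its protein is now known as a subunit of complex IV.

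RNA was sequenced from Hct116 cells, a human colorectal carcinoma line, in a single line without any genetic change named in the labels. Cells were either lenalidomide treated (30 μM) or given an equivalent amount of the solvent dimethyl sulfoxide (DMSO) as control, and both groups were collected after 16 h, with 4 libraries per treatment. Lenalidomide is a small molecule that binds cereblon, the substrate receptor of a ubiquitin ligase, and the RNA measurement asked whether treatment altered transcript levels. The paper describes part of the replicates as label swaps of isotope-labelled amino acids, on cells that were split for protein and RNA. Which libraries these were is not given by the sample titles. The sources differ in whether the replicates are technical or biological, so that p-values measure only the spread between these libraries.

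Complex I passes electrons from NADH to ubiquinone, complex III passes them on to cytochrome c, and complex IV uses them to reduce oxygen, while all of them pump or release protons across the inner mitochondrial membrane. Each complex is built from subunits of both genomes. The catalytic subunits of complex IV, cytochrome b of complex III and the membrane core of complex I are made in the mitochondrion, whereas the genes described here are transcribed in the nucleus. Several complex IV subunits exist as paralogous isoforms, one used in most tissues and another in heart and skeletal muscle or in testis.

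Libraries held between 28218471 and 37473413 counts, with all lenalidomide totals below all DMSO totals. Of the 23459 genes, 13925 passed the filter on low counts, and 55 of the 60 respiratory genes were among them. The 5 that did not pass were COX6A2, COX6B2, COX7A1, COX7B2 and COX8C, all of complex IV. The epithelial genes EPCAM, KRT8, KRT18 and KRT19 were high, while CDH1 and CDX2 stood at 11.8 and 3.61 CPM per kilobase in DMSO. VIL1 and LGALS4 had 7 and 5 counts in all 8 libraries together. Summed over the 8 epithelial markers, DMSO libraries were between 1299 and 1483 CPM per kilobase and lenalidomide libraries between 1258 and 1454. The 6 striated muscle markers summed to between 1.71 and 2.78 CPM per kilobase in any library, with CKM at 0 counts. MYL2 alone had a mean of 1.68 CPM per kilobase in DMSO and 399 counts in all libraries. The 6 testis markers summed to at most 0.123 CPM per kilobase, with PRM1 at 0 counts. The 4 blood markers reached at most 0.117 CPM per kilobase, and the 4 fibroblast markers at most 0.694. In RNA from a whole culture, fewer cells that use a gene and less of its RNA per cell cannot be told apart.

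Per kilobase of exonic width, the respiratory genes were among the more abundant transcripts of the cells. Levels are given here as CPM (counts scaled to a common library size) divided by the exonic width of the gene in kilobases. In the 4 DMSO libraries the median over the 55 genes that passed the filter was 54.0 CPM per kilobase, against 6.36 over all genes tested. The level of 54 of the 55 (98.2%) lay above the latter value, NDUFS7 being the exception. The 90th percentile of all tested genes, at 49.99 CPM per kilobase, was passed by 30 of them, namely 17 of complex I, 6 of complex III and 7 of complex IV. The exonic widths that enter these levels had a median of 930 bases, against 3559 over all genes tested. A comparison with all genes by CPM alone was not made. All 60 genes together, of the 23459 in the table, took between 0.479% and 0.556% of the counts in a library. The 60 genes lie on 20 chromosomes, with 11 of them on chromosome 19.

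**Figure D1:**
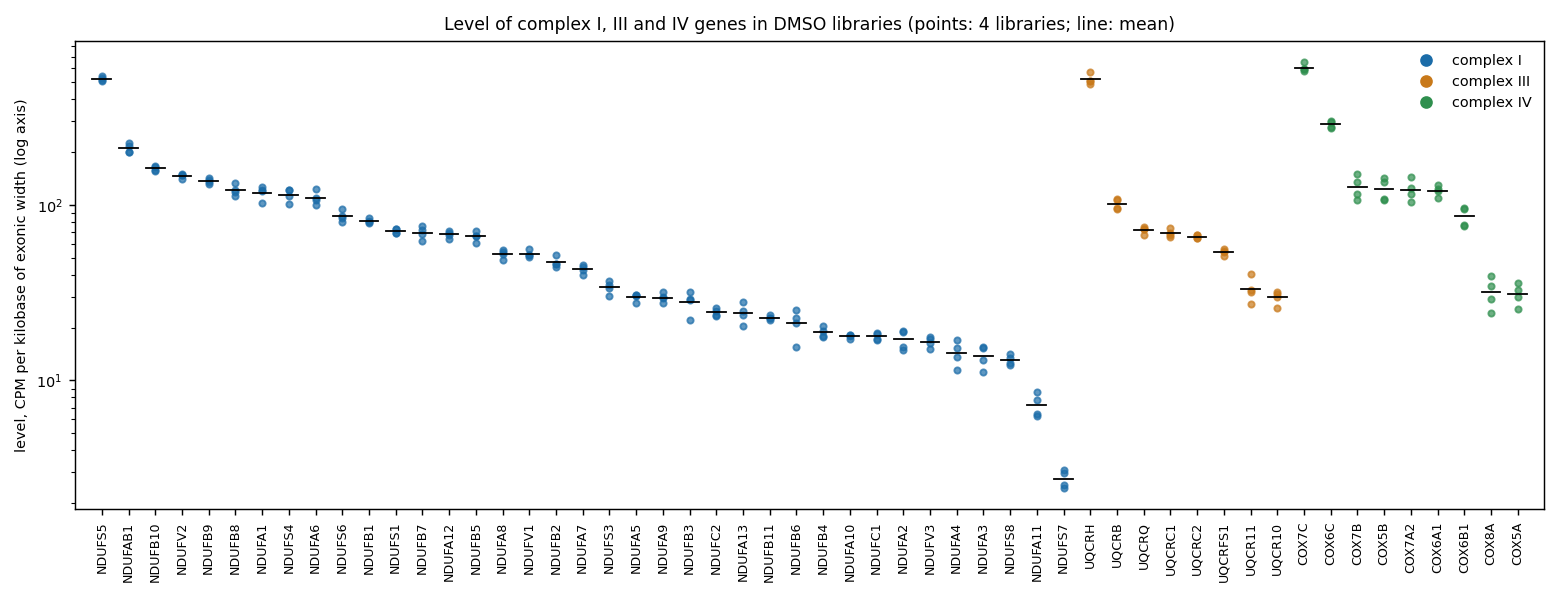
Level of 54 of the 55 genes in the 4 DMSO libraries, in CPM per kilobase of exonic width on a log axis; points are libraries, lines are means and colours are complexes. COX7C (605), NDUFS5 (523) and UQCRH (521) stand at the top of their complexes, and NDUFS7 (2.76) is the lowest of all.

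Within each complex the levels were unequal, although the proteins are assembled in fixed proportions. Complex I spanned a 189-fold range with a median of 39.2 CPM per kilobase, complex III a 17.5-fold range with a median of 67.7, and complex IV a 19.5-fold range with a median of 122 over its 9 genes that passed the filter. Over all 14 complex IV genes, the isoforms without signal included, the median was 59.1. The 3 highest genes of a complex made up 33.6% of its summed level in complex I, 73.4% in complex III and 66.4% in complex IV. The order of the complexes depended on the scale. By CPM without division by width, complex IV over all 14 genes came last at 37.4, behind complex I at 52.3 and complex III at 113, while its 9 genes that passed the filter had a median of 62.0.

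Per kilobase of deposited width, COX7C and COX6C in complex IV and UQCRH in complex III lay far above the other genes of their complexes. COX7C, a small membrane subunit of complex IV encoded on chromosome 5 (chr5:85913745-85916779 of GRCh37, plus strand), had 595, 581, 652 and 593 CPM per kilobase in DMSO replicates 1 to 4, a mean of 605 ± 31.7 (SD, n = 4). NDUFS5, an accessory subunit of complex I that faces the intermembrane space (chr1:39491990-39500308, plus strand), had 513, 530.4, 539.8 and 510.2 CPM per kilobase. UQCRH, the hinge protein of complex III that binds cytochrome c1 (chr1:46769370-46782448, plus strand), had 488, 575, 509.9 and 512 CPM per kilobase. The libraries of COX7C lay above all those of NDUFS5, while those of NDUFS5 and UQCRH overlapped. This order held for the deposited widths, of which that of COX7C is 407 bases. With canonical transcript lengths COX7C had 392 CPM per kilobase, below NDUFS5 at 604 and UQCRH at 654. By CPM alone UQCRB was highest at 529.7, above UQCRH at 351, and COX7C at 246 lay below COX6C at 265. COX6C, another small membrane subunit of complex IV, followed at 287 ± 13.3, and NDUFAB1, the mitochondrial acyl carrier protein that is also a subunit of complex I, at 211 ± 12.1. NDUFB10, an accessory subunit of the membrane arm, had 162 ± 5.36. From COX7C down, of the 54 pairs of neighbours in the order of means, 44 had overlapping DMSO libraries and 10 did not. Of these 10 breaks, 5 fell among the first 7 genes, down to NDUFV2, and 2 separated NDUFS8, NDUFA11 and NDUFS7 at the bottom. The long middle of the order, with the remaining 3 breaks below NDUFB1, UQCRC2 and NDUFA7, was therefore not resolved gene by gene by these libraries.

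The nuclear-encoded core subunits of complex I, which carry the flavin, the iron-sulfur clusters and part of the ubiquinone site, covered most of the range of the complex. NDUFV2, an iron-sulfur subunit of the NADH-binding module, was highest at 147 ± 4.21 CPM per kilobase in DMSO (SD, n = 4). NDUFS1, the largest iron-sulfur subunit, followed with 71.3 ± 1.98, and NDUFV1, which binds NADH and flavin, with 52.5 ± 2.65. NDUFS3, which belongs to the ubiquinone-reducing module, had 33.9 ± 2.86. The iron-sulfur subunits next to the ubiquinone site were lowest, with NDUFS8 at 13.1 ± 0.901 and NDUFS7 at 2.76 ± 0.323. This order held for the deposited widths. With canonical transcript lengths NDUFS3 had 104, above NDUFV1 at 69.2, and NDUFS1 had 21.8, below NDUFS8 at 22.3. By CPM alone NDUFS1 was highest of the core genes at 255, above NDUFV2 at 137, while NDUFS8 (16.4) and NDUFS7 were again lowest. NDUFS7 had 2.45, 3.10, 2.53 and 2.99 CPM per kilobase in DMSO replicates 1 to 4 and lay below every library of the other 54 genes. Its deposited exonic width is 3343 bases, against 758 bases for its canonical transcript in GENCODE, and with the latter its level was 12.2, above NDUFA3 (6.71), NDUFA9 (6.83) and NDUFV3 (7.83), so that NDUFS7 was no longer lowest. By CPM alone it had 9.24, above NDUFA3 at 6.34. The gene is on chromosome 19 (chr19:1383526-1395588 of GRCh37, plus strand) and shares exonic positions with 2 unnamed genes of the opposite strand.

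At the other end of complex I, the accessory subunits NDUFA3 and NDUFA11 had 13.8 ± 2.01 and 7.26 ± 1.10 CPM per kilobase. In complex III, UQCRB, a subunit near the ubiquinone site, had 101 ± 7.08 and the small subunit UQCRQ had 71.9 ± 3.44. The large core proteins UQCRC1 and UQCRC2, which form a pair on the matrix side, had 69.2 ± 3.55 and 66.1 ± 1.44 CPM per kilobase with overlapping libraries. UQCRFS1, the Rieske iron-sulfur protein that hands electrons to cytochrome c1, had 54.0 ± 2.07, and all of its libraries lay below those of UQCRC2. The small membrane subunits UQCR11 and UQCR10 were lowest in complex III, at 33.1 ± 5.29 and 29.7 ± 2.64 CPM per kilobase. In complex IV, COX7B (127 ± 19.8) came after COX7C and COX6C. COX5B, a zinc-binding subunit on the matrix side, had 123 ± 18.0, and its partner on that side, COX5A, was lowest of the 9 genes at 31.1 ± 4.52. COX8A, a small membrane subunit, was next to it at 31.8 ± 6.54, and COX6B1, which faces the intermembrane space, had 86.3 ± 10.97. These orders too held for the deposited widths. With canonical transcript lengths UQCRFS1 was lowest in complex III at 21.4, below UQCR10 at 31.6 and UQCR11 at 34.0. On that scale NDUFA11 had 37.1, and COX7B had 23.6 against 20.4 for COX5A. By CPM alone COX8A (16.1) lay below COX5A (23.9).

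Width and related sequences moved with these levels. The 55 genes had exonic widths between 407 and 8371 bases, with a median of 930 against 3559 over all genes tested. Across the 55 genes, Spearman's rho was -0.48 between width and level and 0.19 between width and CPM, a description over genes that share the same libraries. Width is the divisor of the level, so that a negative rho between them is partly built in. At least 1 annotated pseudogene was found by name for 32 of the 55 genes, 119 pseudogenes in all. The median level was 83.8 CPM per kilobase for these 32 genes and 33.1 for the other 23, and rho for the number of pseudogenes was 0.44 with the level and 0.26 with CPM. How reads shared with such copies were counted was not tested. Exons of 20 of the 55 genes overlapped a gene of the opposite strand, and 18 overlapped one of the same strand, such as NDUFS3 with PTPMT1 and NDUFC2 with the readthrough gene NDUFC2-KCTD14. No strand setting is stated for the counting, so that counts of such partners cannot be separated.

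The clearest contrast in the complex IV genes was between paralogous isoforms. For each of 5 pairs one isoform was abundant in all 8 libraries, and the other was at or close to 0 counts. COX6A2 and COX7A1, the isoforms of heart and skeletal muscle, and COX6B2, COX7B2 and COX8C, known from testis, were the 5 genes that did not pass the filter on low counts. None of these pairs was tested, because the scarce isoform had 3 counts or fewer in at least 1 library.

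COX6A1 had 119.7, 130.1, 109 and 123 CPM per kilobase in DMSO replicates 1 to 4 and 116, 119, 114 and 107 in lenalidomide replicates 1 to 4, whereas COX6A2 had 0 counts in all 8 libraries. Against a floor of 3 counts over the 8 libraries, COX6A1 was at least 4688-fold higher per kilobase. COX7B, a small membrane subunit, had 115, 150.5, 106.5 and 135 CPM per kilobase in DMSO and 121, 139, 129 and 106 in lenalidomide libraries. COX7B2 had 0 counts in all of them, and COX7B was at least 7304-fold higher per kilobase. The values of both abundant isoforms overlapped between treatments.

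COX7A2 had 116, 145, 104 and 125 CPM per kilobase in DMSO and 116, 112, 123 and 111 in lenalidomide libraries. COX7A1 had 2 counts in all, both in lenalidomide replicate 4. The ratio was 12353 with an exact binomial interval at 95% from 3419 to 102010. Without lenalidomide replicate 4, COX7A1 was at 0 and COX7A2 was at least 7420-fold higher. COX8A had 29.3, 39.2, 24.1 and 34.6 CPM per kilobase in DMSO and 31.1, 30.3, 35.1 and 32.8 in lenalidomide libraries, with DMSO replicates 2 and 3 at the extremes. COX8C had 5 counts, in DMSO replicates 1, 3 and 4, and the ratio was 926 (396 to 2852). COX6B2 was the one scarce isoform with counts in every library, between 2 and 8 each and 43 in all. Relative to COX6B1 the ratio was 1487 (1103 to 2055) per kilobase and 317 by counts alone, since the deposited width of COX6B2 is 2766 bases against 590 for COX6B1. All of these intervals and floors cover counting error only.

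**Figure D2:**
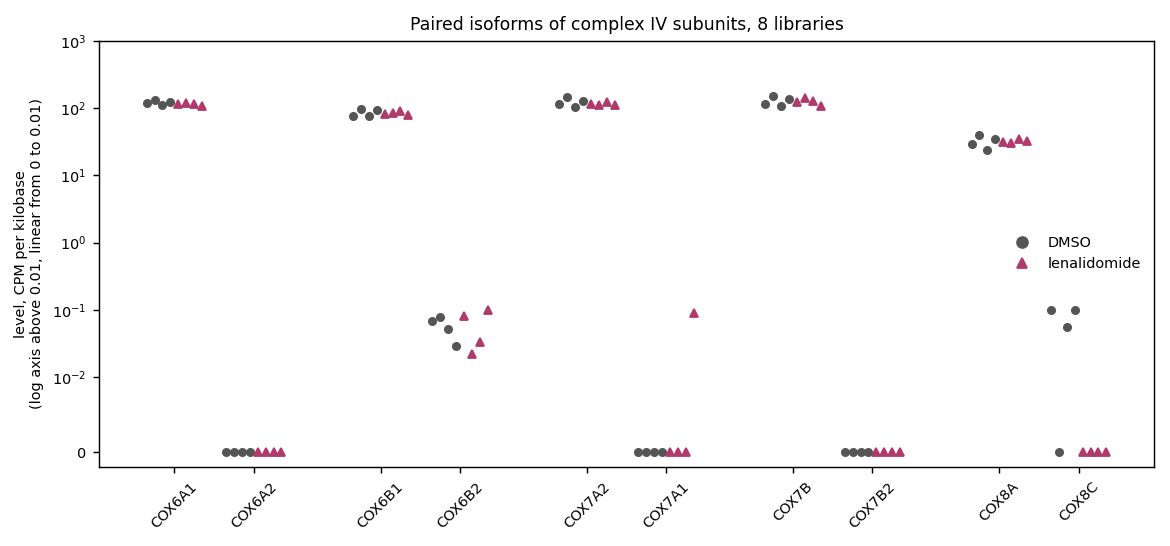
Level of the 5 pairs of complex IV isoforms in each of the 8 libraries, in CPM per kilobase on an axis that is linear below 0.01 and logarithmic above, with circles for DMSO and triangles for lenalidomide. The abundant isoforms sit between 24.1 and 150.5, whereas COX6A2 and COX7B2 are at 0 in every library, COX7A1 is above 0 in 1 library, COX8C in 3, and COX6B2 in all 8 at no more than 0.10.

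Similar contrasts were found for related genes outside the symbol rule. COX4I1, the common isoform of subunit 4, had 115 ± 6.89 CPM per kilobase in DMSO (SD, n = 4), and COX4I2, an isoform known from lung, had 0 counts in all libraries. NDUFA4L2, a paralog of NDUFA4 known as a hypoxia-responsive gene, had 0.0789 ± 0.040 CPM per kilobase against 14.4 ± 2.37 for NDUFA4. COX7A2L, a COX7A-related protein that joins complexes III and IV, had 58.3 ± 1.88.

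Promoters are shown for 3 of the 4 isoform pairs with a window for both genes, as examples of isoforms that differed widely in their RNA. They were searched for motifs of factors known for respiratory genes. The windows are those of RefSeq on GRCh38.p14, from 250 bases before to 50 bases after the annotated start, 5′ to 3′ on the strand of the gene. They are chr12:120437863-120438162 (plus) for COX6A1, chr16:31428311-31428610 (minus) for COX6A2, chrX:77899218-77899517 (plus) for COX7B, chr4:46909196-46909495 (minus) for COX7B2, chr11:63974370-63974669 (plus) for COX8A and chr14:93346932-93347231 (plus) for COX8C. Capitals mark matches, on either strand, to GCATGCGC of the NRF1 motif, CCGGAAG of the ETS motif bound by GABP, and AANATGGCG of the YY1 motif.
COX6A1: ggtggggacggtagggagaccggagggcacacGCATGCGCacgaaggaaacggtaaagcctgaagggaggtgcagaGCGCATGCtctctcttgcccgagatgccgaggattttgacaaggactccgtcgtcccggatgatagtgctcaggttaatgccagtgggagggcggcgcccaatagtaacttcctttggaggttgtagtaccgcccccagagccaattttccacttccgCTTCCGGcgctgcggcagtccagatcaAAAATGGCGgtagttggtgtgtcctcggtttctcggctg
COX6A2: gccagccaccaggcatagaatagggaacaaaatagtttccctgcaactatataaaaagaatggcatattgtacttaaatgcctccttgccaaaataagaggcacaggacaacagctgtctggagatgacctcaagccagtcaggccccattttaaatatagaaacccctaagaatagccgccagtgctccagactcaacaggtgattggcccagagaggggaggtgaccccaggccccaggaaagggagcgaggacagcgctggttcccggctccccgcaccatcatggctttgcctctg
COX7B: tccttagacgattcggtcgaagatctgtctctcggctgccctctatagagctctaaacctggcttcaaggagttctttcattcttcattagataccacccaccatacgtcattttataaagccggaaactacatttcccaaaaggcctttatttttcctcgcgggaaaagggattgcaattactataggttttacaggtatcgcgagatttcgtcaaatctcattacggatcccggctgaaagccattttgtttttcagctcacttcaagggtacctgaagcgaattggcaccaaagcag
COX7B2: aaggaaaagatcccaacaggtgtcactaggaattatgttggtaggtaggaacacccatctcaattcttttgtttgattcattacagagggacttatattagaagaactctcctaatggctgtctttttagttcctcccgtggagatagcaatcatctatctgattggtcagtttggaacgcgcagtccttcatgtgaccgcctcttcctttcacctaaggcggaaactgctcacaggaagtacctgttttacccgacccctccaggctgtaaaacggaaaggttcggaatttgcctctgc
COX8A: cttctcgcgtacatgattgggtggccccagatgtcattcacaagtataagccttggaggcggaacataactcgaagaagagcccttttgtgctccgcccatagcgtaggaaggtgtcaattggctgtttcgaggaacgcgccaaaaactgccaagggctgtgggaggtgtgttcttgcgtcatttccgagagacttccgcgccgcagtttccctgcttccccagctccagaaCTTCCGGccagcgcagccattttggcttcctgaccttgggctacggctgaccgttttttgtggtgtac
COX8C: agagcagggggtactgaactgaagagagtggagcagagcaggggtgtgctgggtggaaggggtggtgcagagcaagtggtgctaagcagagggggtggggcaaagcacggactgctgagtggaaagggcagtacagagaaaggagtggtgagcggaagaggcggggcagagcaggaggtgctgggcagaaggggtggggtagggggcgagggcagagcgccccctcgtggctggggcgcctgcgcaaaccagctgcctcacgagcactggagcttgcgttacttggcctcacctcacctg

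COX6A1 held 2 NRF1 matches, 1 ETS match and 1 YY1 match, with 22 CpG dinucleotides, and none of the matches overlapped another. COX6A2 held no match and 5 CpG. COX8A held 1 ETS match with 18 CpG, and COX8C held no match with 10 CpG. COX7B and COX7B2 had none of the 3 motifs, with 14 and 8 CpG, so that an abundant isoform was also found without these letters in its window. The pair not shown had more CpG at the scarce isoform. COX6B1 held 1 ETS match with 16 CpG, and COX6B2 held no match with 31 CpG. A match is a run of letters in the window and not a measured binding site.

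Windows were found for 47 of the 55 genes that passed the filter, 55 windows in all, since some genes have several starts. At least 1 of the 3 motifs occurred in 28 of these windows (50.9%), against 24.2% of the 14977 windows of tested genes and 15.1% of all 35116 windows. The NRF1 motif was in 8 (14.5%, against 4.59% of tested genes' windows and 3.05% of all windows), the ETS motif in 12 (21.8%, against 16.4% and 10.3%) and the YY1 motif in 16 (29.1%, against 5.85% and 3.19%). The YY1 motif was in 12 of 39 complex I windows, 3 of 7 complex III windows and 1 of 9 complex IV windows. Among the core genes of complex I it occurred at NDUFS1, NDUFS3, NDUFS7, NDUFS8 and NDUFV2. The median number of CpG was 22 in these 55 windows and 25 in those of tested genes. COX6A2, COX6B2, COX7B2 and COX8C, which did not pass the filter, had 4 windows with none of the motifs.

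None of the 55 genes passed the test of lenalidomide against DMSO. By the quasi-likelihood test of edgeR, adjusted over 13925 genes by Benjamini-Hochberg, 0 of 55 had an adjusted p under 0.05, where 0.0144% of all genes tested (2 genes) had one. DESeq2 and edgeR's likelihood ratio test also gave 0 of 55. At an unadjusted p under 0.05 by the quasi-likelihood test the count was again 0 of 55, against 4.18% of all genes tested, 3.26% of them higher and 0.919% lower with lenalidomide. DESeq2 and the likelihood ratio test gave 0 of 55 at that level too. Without DMSO replicate 3, 8 of the 55 had an unadjusted p under 0.05, all lower, against 2.27% of all genes lower in that fit. These were NDUFB3, NDUFB5, NDUFB6, NDUFC1 and NDUFA4, UQCR10, COX6A1 and COX7A2, each with an adjusted p of 0.819 (quasi-likelihood test of edgeR).

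**Figure D3:**
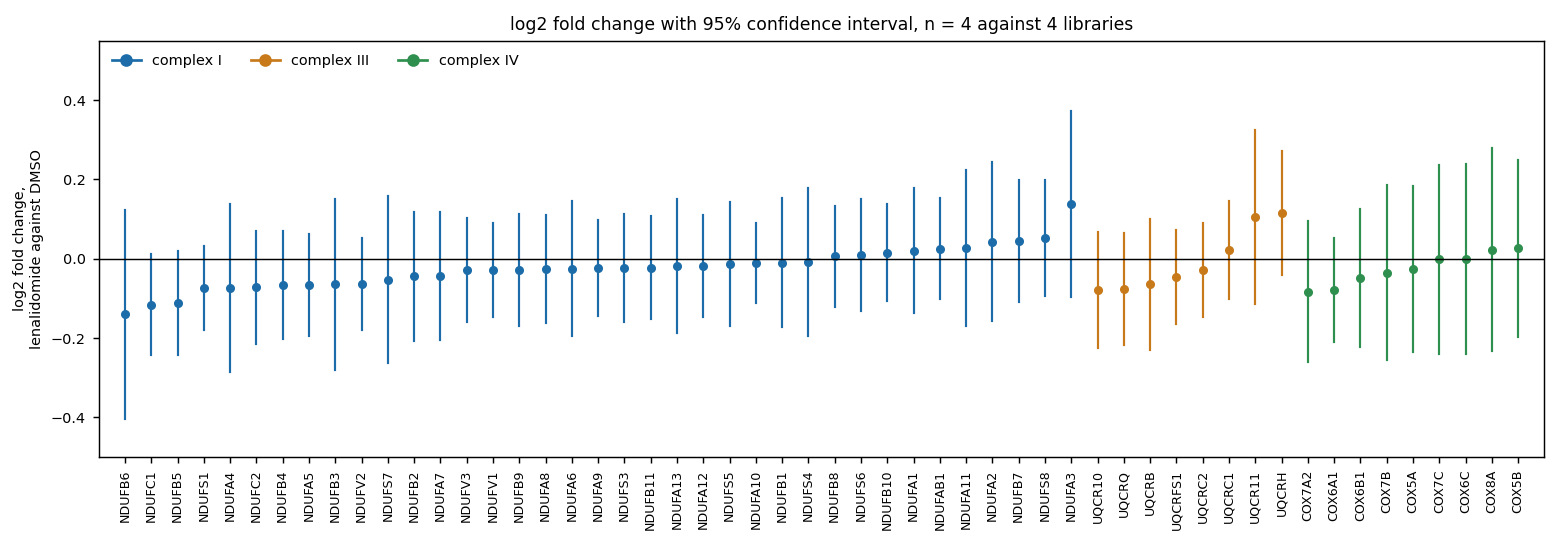
Log2 fold change of lenalidomide treated against DMSO libraries for 54 of the 55 genes, by complex and in rising order, with the 95% confidence interval of the quasi-likelihood fit (4 against 4 libraries). Every interval shown crosses 0, and the point values run from -0.14 for NDUFB6 to 0.14 for NDUFA3.

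The log2 fold changes were small, between -0.14 (NDUFB6) and 0.14 (NDUFA3), and all 55 confidence intervals at 95% included 0. With 1 library left out, the value of NDUFB6 ran from -0.26, without DMSO replicate 3, to -0.045, without DMSO replicate 2. That of NDUFA3 ran from 0.050, without DMSO replicate 3, to 0.20, without DMSO replicate 4. The interval had a median half-width of 0.147, against 0.167 over all genes tested, and the limits reached from -0.40 to 0.37. For 45 of the 55 genes (81.8%) the whole interval lay within 0.25 of 0 on the log2 scale, as it did for 56.3% of all genes tested. Changes beyond that size lay outside the interval of these 45 genes, while smaller changes were not resolved.

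By sign, 39 of the 55 log2 fold changes (70.9%) were below 0, where 48.7% of all genes tested were. These were 28 of 38 in complex I, 5 of 8 in complex III and 6 of 9 in complex IV. The median was -0.025 over the 55 genes and 0.0025 over all genes tested, and by complex it was -0.024, -0.038 and -0.025 for complexes I, III and IV. With 1 library left out, the complex IV median was lowest at -0.11, without DMSO replicate 3, and highest at 0.016, without lenalidomide replicate 4. Those of complexes I and III ran from -0.050 and -0.060, without lenalidomide replicate 2, to 0.0058 and 0.00082, without lenalidomide replicate 4. This count moved with single libraries. Without lenalidomide replicate 4 it was 25 of 55, with 47.5% of all genes below 0, and the median was 0.0038. Without DMSO replicate 2 it was 28 and without DMSO replicate 1 it was 51.

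Groups that did not overlap were found for 0 of 55 genes in the higher direction, against 1.24% of all genes tested, and for 1 in the lower direction, against 0.84%. The gene was NDUFS1 (chr2:206979541-207024233 of GRCh37, minus strand). It had 73.3, 69.6, 72.7 and 69.6 CPM per kilobase in DMSO replicates 1 to 4, and 66.8, 69.1, 69.3 and 65.9 in lenalidomide replicates 1 to 4. The gap between the highest lenalidomide and the lowest DMSO library was small beside the spread within each treatment. In the edgeR fit the log2 fold change of NDUFS1 was -0.074 ± 0.049 (standard error) at an adjusted p of 0.999. Its exons overlap the pseudogene GCSHP3 on the same strand and an unnamed gene on the opposite one.

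The genes with the smallest p in each complex did not separate the treatments either. NDUFC1, a small accessory subunit of complex I, had 18.4, 18.6, 17.1 and 17.2 CPM per kilobase in DMSO and 16.2, 16.4, 17.4 and 15.9 in lenalidomide libraries. Lenalidomide replicate 3 lay above DMSO replicates 3 and 4, and the log2 fold change of -0.12 ± 0.059 (standard error) had the smallest unadjusted p of the 55 genes, with an adjusted p of 0.999 in the edgeR fit. NDUFB5, an accessory subunit of the membrane arm, had 66.9, 70.8, 60.4 and 66.4 in DMSO and 60.2, 65.2, 62.6 and 56.8 in lenalidomide libraries, a log2 fold change of -0.11 ± 0.061 (standard error). DMSO replicate 3 lay within the range of the lenalidomide libraries.

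In complex III the smallest p values were those of UQCRH and UQCRQ, in opposite directions. UQCRH had 534, 645, 550.5 and 529 CPM per kilobase in lenalidomide libraries against 488 to 575 in DMSO, a log2 fold change of 0.12 ± 0.073 (standard error), and DMSO replicate 2 was above 3 of the 4 lenalidomide libraries. UQCRQ had 65.3, 75.2, 71.2 and 61.1 in lenalidomide and 67.0, 73.0, 75.0 and 72.7 in DMSO libraries, a log2 fold change of -0.076 ± 0.066 (standard error). With 1 library left out, UQCRH ran from 0.045, without lenalidomide replicate 2, to 0.17, without DMSO replicate 2. UQCRQ ran from -0.13, without lenalidomide replicate 2, to -0.028, without lenalidomide replicate 4. In complex IV they were COX6A1 and COX7A2, whose values are given above, with log2 fold changes of -0.079 ± 0.061 (standard error) and -0.083 ± 0.083 (standard error). That of COX7A2 changed sign without DMSO replicate 2, to 0.0073. At the ends of the range, NDUFB6 had 21.3, 25.3, 15.6 and 22.6 in DMSO and 18.7, 17.2, 22.2 and 18.9 in lenalidomide libraries, so that the DMSO libraries spanned the lenalidomide libraries. NDUFA3 had 13.1, 15.3, 11.2 and 15.5 in DMSO and 14.3, 14.9, 16.6 and 14.8 in lenalidomide libraries, again overlapping.

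Summed over a complex, the levels of the treatments overlapped as well. Complex I genes summed to 2671 ± 66.0 CPM per kilobase in DMSO and 2641 ± 185 in lenalidomide libraries (SD, n = 4 each). The sums were 947 ± 47.5 and 981 ± 79.7 for complex III, and 1535 ± 58.4 and 1517 ± 217 for complex IV. The wider spread with lenalidomide lay between replicate 2, the highest library for all 3 complexes (2860, 1093 and 1794), and replicate 4, the lowest (2422, 914 and 1266). In complex IV the coefficients of variation of COX7C and COX6C were 21.0% and 20.7% with lenalidomide, against 5.24% and 4.64% in DMSO. Every other tested complex IV gene had a smaller coefficient with lenalidomide than in DMSO.

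The spread between libraries of one treatment differed between the complexes. In DMSO the coefficient of variation had a median of 6.85% over the 55 genes, against 7.25% over all genes tested and 8.01% over 521 other genes of at most 1200 bases and at least 10 CPM. It was 6.44% for complex I, 6.06% for complex III and 14.2% for complex IV. In lenalidomide libraries it was 6.51%, 7.75% and 9.01%. UQCRC2 (2.18%) and NDUFA10 (2.53%), an accessory subunit of complex I, varied least in DMSO, and COX8A (20.6%) and NDUFB6 (19.3%) most. A coefficient above 10% in DMSO was found for 15 of the 55 genes, 8 in complex I, 1 in complex III and 6 of 9 in complex IV, where 31.9% of all genes tested had one.

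The genes tended to move together from library to library, in patterns picked after the values were seen. DMSO replicate 2 was the highest and DMSO replicate 3 the lowest DMSO library for 19 of 55 genes (34.5%), against 13.4% of all genes tested. They included 6 of the 9 complex IV genes, COX5A, COX6A1, COX6B1, COX7A2, COX7B and COX8A, with 10 of 38 in complex I and 3 of 8 in complex III. COX7C and COX6C, the highest of complex IV, did the reverse, with DMSO replicate 3 their highest and replicate 2 their lowest library. Among the lenalidomide libraries, replicate 2 was highest and replicate 4 lowest for 29 of 55 genes (52.7%), against 17.2% of all genes tested. Replicate 4 was the lowest for 38 of 55 (69.1%), against 31.2%. COX7C had 627, 769, 551 and 471 CPM per kilobase in lenalidomide replicates 1 to 4, and COX6C had 288, 362, 282 and 217. Both thus ran from their highest to their lowest value of the experiment within one treatment, with coefficients of variation of 21.0% and 20.7%.

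**Figure D4:**
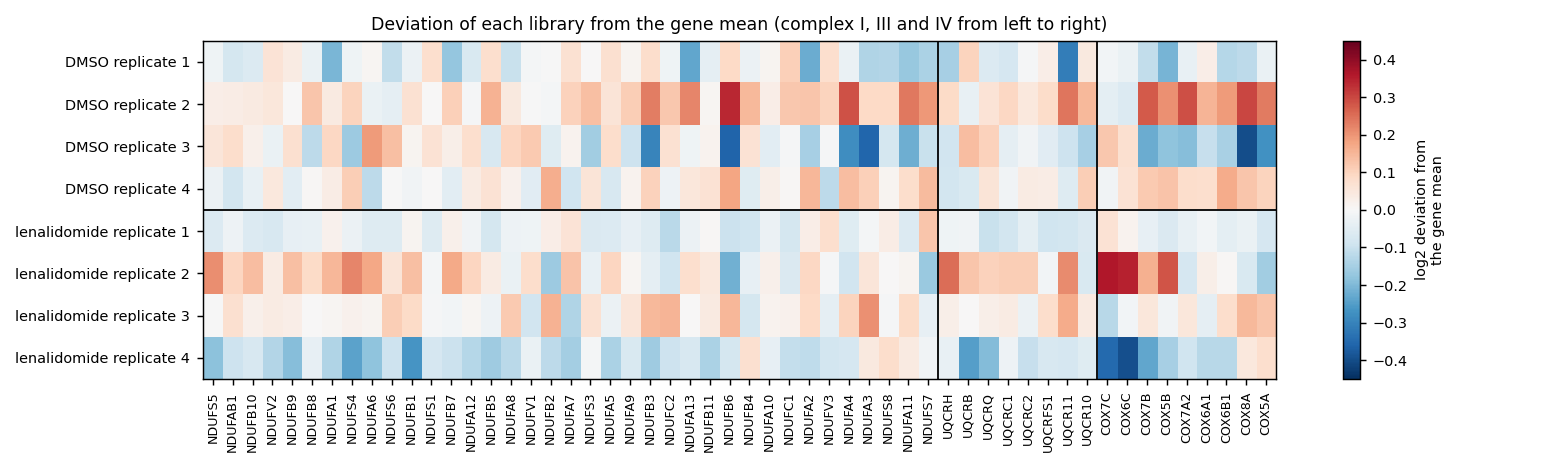
Log2 deviation of each library (rows) from the mean of the gene over the 8 libraries (columns, 54 of the 55 genes by complex and falling level) on a colour scale centred on 0. Lenalidomide replicate 4 is blue for most genes, with a median of -0.095 over all 55, DMSO replicate 2 is red with a median of 0.092, and the right-hand complex IV genes part most between DMSO replicates 2 and 3.

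Short genes outside the complexes had medians of the same sign in the libraries that stood out. The median log2 deviation from the mean over the 8 libraries was 0.092 for the 55 genes and 0.071 for the 521 short genes in DMSO replicate 2, and -0.095 and -0.087 in lenalidomide replicate 4. For the 9 complex IV genes it was 0.21 in DMSO replicate 2 and -0.18 in DMSO replicate 3, where the short genes stood at -0.0023. The part of these library differences in the levels above was not tested.

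The rest of the respiratory chain and the genes that build and regulate it were read from the same fit. Of 26 other subunits, those of complex II, ATP synthase, cytochrome c and the related genes named above, 24 were tested and 0 had an adjusted p under 0.05 in the edgeR fit. SDHC, a membrane anchor of complex II, was the 1 of 24 with an unadjusted p under 0.05, where 4.18% of all genes tested had one, at a log2 fold change of 0.33 ± 0.13 (standard error) and an adjusted p of 0.999 in the edgeR fit. None of the 14 assembly factors of complex I, the 6 of complex III or the 22 of complex IV had an adjusted p under 0.05 or an unadjusted p under 0.05, against the 0.0144% and 4.18% of all genes tested. Of 12 regulators, 11 were tested and 0 had an adjusted p under 0.05, PPARGC1A being left out with 33 counts in all libraries. NRF1, a transcription factor of nuclear respiratory genes, stood at a log2 fold change of 0.25 ± 0.098 (standard error), the 1 of 11 with an unadjusted p under 0.05, at an adjusted p of 0.999 in the edgeR fit. Median log2 fold changes of these 5 lists lay between -0.039 and -0.0051. The median level of the assembly factors in DMSO was 12.9, 13.3 and 27.6 CPM per kilobase for complexes I, III and IV, below the median of the tested subunits of each complex. Single factors stood above those medians, namely NDUFAF8 (114), TIMMDC1 (74.3) and NDUFAF2 (45.4) of complex I and COX17 (151), the copper chaperone of complex IV. The other respiratory chain subunits had a median of 86.0.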

How the data were processed

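Total RNA of 8 Hct116 libraries was prepared with a ScriptSeq kit. The authors aligned the reads to hg19 with QuasR with default parameters and spliced alignment, and deposited raw counts for the UCSC known genes beside their exonic widths; tool versions other than bcl2fastq 2.17, from the submitters' processing notes, are not given in the sources used here. The genes were matched by symbol. The members and gene lists were chosen with earlier results of these data known. Counts were analysed across all genes in R 4.3.3 with edgeR 4.0.16 (filterByExpr minimum count 10, minimum total 15, TMM factors, quasi-likelihood test, Benjamini-Hochberg threshold of 0.05, confidence intervals at 95%). DESeq2 1.42.0, other scalings and filters, a replicate block and leaving out each library were alternatives. CPM were scaled by TMM factors and divided by exonic width. A floor of 3 counts was used for isoforms at 0. Gene positions and canonical transcripts came from GENCODE on GRCh37, and promoters from RefSeq on GRCh38.p14. Members were named by complex for smallest p, lack of overlap, extremes of level or variation, core role and isoform pairs. The values of 1 gene by itself are not reported here. Simulated counts were used to test the scripts.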

Additional observations from a re-analysis of the deposited data

Results flagged for a closer look

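In 5 of 110 groups of 4 values, 1 library lay apart from the other 3. By chance about 5.5 such groups would be found. NDUFV2 was at 140.7 CPM per kilobase in DMSO replicate 3, against 148.6 to 149.7 in the other DMSO libraries. NDUFA5 was at 27.81 in DMSO replicate 4, against 30.4 to 30.87. In lenalidomide replicate 3, UQCR10 was at 29.69 against 27.56 to 27.81, NDUFC2 at 26.46 against 21.9 to 22.34, and NDUFA4 at 14.92 against 13.12 to 13.41. The cause of these values was not tested.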

How the results depend on the processing

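Of the 55 genes, 0 had an adjusted p under 0.05 by any of the alternatives run. Over all genes the count was 2 with the quasi-likelihood test, 9 with DESeq2, 12 with the likelihood ratio test, 4 with no filter beyond 1 count and 1 to 2 with each library left out. At an unadjusted p under 0.05 the count among the 55 genes was 0, but 0 to 8 with each library left out, the highest without DMSO replicate 3 (6.03%). With no filter beyond 1 count it stayed at 0, and 1 of the 5 scarce isoforms had such a p (4.25% of all genes). Without DMSO replicate 2 it was 2, UQCRH and UQCR11 (3.08% of all genes), and without lenalidomide replicates 2 and 3 it was 1 and 2 (7.42% and 4.14%). The count of log2 fold changes below 0 ran from 25, without lenalidomide replicate 4, to 51, and the median from -0.055 to 0.0038. The log2 fold change of COX7A2 ran from -0.16 to 0.0073, the last without DMSO replicate 2. The medians of complexes I, III and IV in DMSO were 52.3, 113 and 37.4 CPM without division by width. With canonical transcript lengths, an alternative chosen after seeing the data, they were 55.3 for complex I and 28.1 for complex IV over its 14 genes, the 5 scarce isoforms included. Over its 9 tested genes only, complex IV had a median of 122.4 per kilobase of deposited width and 104 with canonical lengths, above complex I. In DMSO libraries only, the bounds for COX6A1, COX7B and COX7A2 were 2580, 3960 and 4540, since fewer counts enter them. COX8A against COX8C was 494 there, since all COX8C counts are in DMSO libraries. Over all 8 libraries, COX6B1 against COX6B2 was 317 without division by width. The cause of the other shifts was not tested.

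With the replicate number as a block, 6 genes of all passed, 1 of the 55 (UQCRH) had an unadjusted p under 0.05, where 5.47% of all genes did, and no adjusted call among the 55 changed. Deviations of same-numbered libraries correlated at 0.052, -0.0075, 0.0032 and 0.305 for replicates 1 to 4. Whether same-numbered libraries share more than a number was not tested.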

Other observations

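Copies of 2 complex III genes had counts of their own. UQCRHL, an intronless copy of UQCRH on chromosome 1 (chr1:16133664-16135843 of GRCh37, minus strand), held 26208 counts in all libraries, with 82.8, 99.7, 95.8 and 93.5 CPM in DMSO and 90.5, 114, 99.4 and 98.1 CPM in lenalidomide replicates 1 to 4. UQCRBP1, a pseudogene of UQCRB, held 26569 counts, with 105.9, 103, 71.5 and 104 CPM in DMSO and 96.1, 107, 103 and 89.9 CPM in lenalidomide replicates 1 to 4. DMSO replicate 3 stood lowest for UQCRBP1, while UQCRB itself was highest there. Whether reads were exchanged between these copies and their parent genes was not tested.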
